A study of Mus musculus with 8 samples.

Results

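The Clec genes of the mouse encode proteins built around the C-type lectin domain, a fold that in many of them binds sugars in a calcium-dependent way and in others binds proteins or crystals. The family was taken as every row of the deposited count table whose symbol is Clec followed by a digit. This gave 32 of 24411 gene rows, and the 21 with a mean raw count of 20 or more over the 8 libraries are reported with their values. Of the 24411 rows, 13813 reach that mean.

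RNA was measured by poly(A) sequencing of whole aortas from 5 caIKK2EC mice and 3 Control mice. The caIKK2EC mice were caIKK2(+/+) BMX-CreERT2(+/-) ApoE(-/-), and the Control mice were Cre-negative littermates, caIKK2(+/+) and ApoE(-/-). IKK2 is the kinase that switches on the transcription factor NF-κB, and caIKK2 is a permanently active form of it that sits, together with EGFP, behind a STOP cassette flanked by loxP sites. Only BMX-CreERT2, active in arterial endothelial cells, removes that cassette after tamoxifen. All 8 mice therefore lacked apolipoprotein E, carried the transgene, received tamoxifen (1 mg per 20 g by intraperitoneal injection on 5 days) and ate a Western-type diet for 12 weeks to form plaques. The 5 caIKK2EC mice were females of 18 or 19 weeks. Control 1 and Control 2 were females of 18 weeks, and Control 3 was a male of 19 weeks. By the deposited column names, lane 7 of the sequencer held caIKK2EC 1 and the 3 Controls, and lane 8 held caIKK2EC 2 to 5.

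Most Clec genes sit in gene clusters on chromosome 6, and many of them are receptors of macrophages, neutrophils and dendritic cells, the phagocytes that fill an atherosclerotic plaque. Activating members such as Dectin-1, Dectin-2 and Mincle signal through an ITAM-type motif, their own or that of the adaptor FcRγ or DAP12, to the kinase Syk, and from there through Card9, Bcl10 and Malt1 to NF-κB. Inhibitory members such as DCIR carry an ITIM motif that recruits the phosphatases SHP-1 and SHP-2. Other members are secreted, are expressed by endothelium or serve as ligands of natural killer cell receptors.

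Transcripts of 6 Clec genes, 4 of them from the Dectin-2 cluster of activating and inhibitory phagocyte receptors, were at 1.75 to 2.30 times the Control mean in caIKK2EC aortas and were called by DESeq2 but not by edgeR. The quasi-likelihood test of edgeR called 0 of the 21 genes at an adjusted p under 0.05, and it called 0 of the 14679 genes tested (0.0%). At an unadjusted p under 0.05, edgeR gave 9 of the 21 Clec genes as higher, where 9.66% of all genes were higher, and 0 as lower, where 7.47% of all genes were lower. DESeq2 called 6 of the 21 higher at an adjusted p under 0.05 (Clec4d, Clec4n, Clec4e, Clec4a2, Clec5a and Clec2i) and 0 lower. Over the 14340 genes that DESeq2 gave an adjusted p, it called 4.55% higher and 1.51% lower.

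The lowest caIKK2EC library exceeded the highest Control in 6 of the 21 genes, and in 0 the highest caIKK2EC library was under the lowest Control, where 7.01% and 3.22% of all genes did so. These 6 were Clec4d, Clec4n, Clec12a, Clec4a2, Clec4e and Clec2i. The median log2 fold change of the 21 genes was 0.46, with 17 positive and 4 negative values, and that of all genes tested was -0.017. Without Control 3 the median of the 21 genes was 0.16, and DESeq2 then called 0 of them and 389 of all genes. Within lane 7, caIKK2EC 1 exceeded the mean of the 3 Controls by a log2 difference of 1.19 in Clec4d, 1.27 in Clec4n, 1.38 in Clec4e, 1.196 in Clec4a2, 1.34 in Clec5a and 1.24 in Clec2i. It lay above the highest Control in all 6 of these DESeq2-called genes. Except in Clec5a this was fixed in advance, since the groups do not overlap. Across the 21 genes this difference ran from -0.98 in Clec11a to 1.38 in Clec4e, with a median of 0.92. The median of all genes tested was 0.0088. These values rest on caIKK2EC 1 alone, which was the highest of the 8 libraries in 8 of the 21 Clec genes and in 13.6% of all genes tested. Lane 8 held caIKK2EC libraries only and gives no such value.

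Control 3 stood apart from the other libraries in this gene family, and also over all genes tested. It was the lowest of the 8 libraries in 15 of the 21 Clec genes, and over all genes tested it was the lowest library in 28.2% and the highest in 25.8%. Its sex, its age and its individual aorta cannot be told apart from one another among the Controls. Total counts were 23461655 to 30808502 per library. The gene Ikbkb, which encodes IKK2, was at 98.4 ± 4.08 CPM (SD, n = 5) in caIKK2EC and 79.8 ± 12.4 CPM (SD, n = 3) in Control aortas. The groups did not overlap, but neither test called it (log2 fold change 0.30, edgeR adjusted p = 0.237, DESeq2 adjusted p = 0.146). Control 3 was its lowest library at 65.4 CPM, and without Control 3 the log2 fold change was 0.18. Whether reads of the caIKK2 transgene were counted as Ikbkb was not tested. CPM here are counts scaled to a common library size, with factors from the trimmed mean of M values (TMM).

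**Figure D1:**
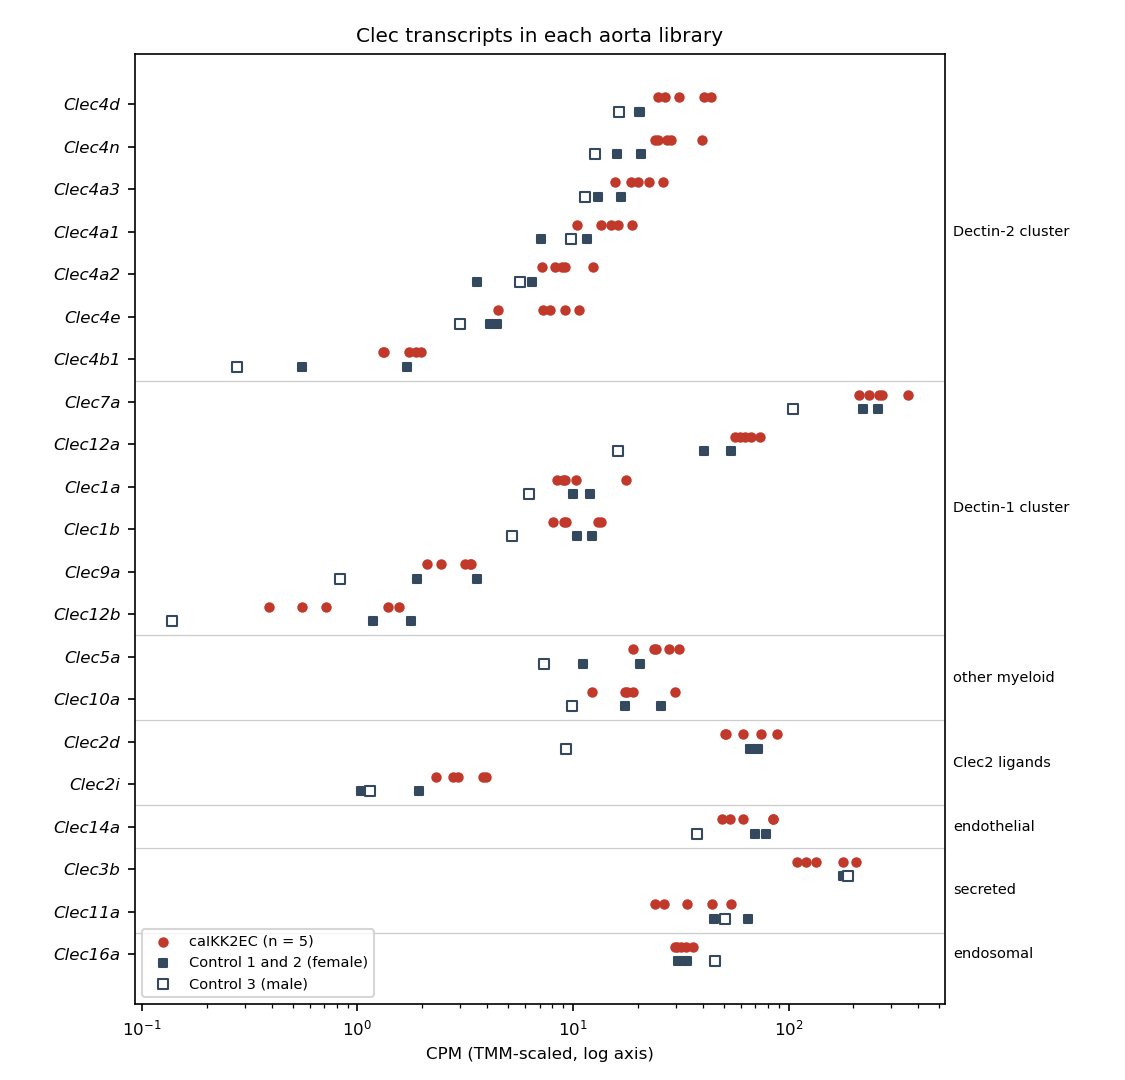
CPM of the 21 reported Clec genes in each library on a log axis, with 1 row per gene grouped by role: red circles are the 5 caIKK2EC libraries, filled squares Control 1 and Control 2, and the open square Control 3. In 6 genes all red circles lie to the right of all squares, and Control 3 is the lowest library in 15 of the 21 genes.

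Of the 32 family members 24 lie on chromosome 6, among them 16 of the 21 reported genes (GENCODE M21, GRCm38). The Dectin-2 cluster spans the interval from the start of Clec4a1 at base 122921848 to the end of Clec4e at base 123289870. The Dectin-1 cluster lies farther along, from the start of Clec12a at base 129342691 to the end of Clec7a at base 129472779, with Clec2i and Clec2d just before it. The 16 genes of chromosome 6 had a median log2 fold change of 0.71, with 9 at an unadjusted edgeR p under 0.05 and 6 DESeq2 calls, all higher. The 5 genes on other chromosomes had a median of -0.19, with 0 at an unadjusted p under 0.05 and 0 DESeq2 calls. Of all genes, 9.66% were higher at an unadjusted edgeR p under 0.05, and DESeq2 called 4.55% higher. Without Control 3 the medians were 0.50 on chromosome 6 and -0.16 on the other chromosomes.

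Promoters are shown for the genes that share a DESeq2 call, as far as a window was found. RefSeq promoter windows (GRCm38.p6) run from 250 bases before to 50 bases after a transcript start, and 17 of the 21 reported genes had one. Clec4n, Clec10a, Clec1a and Clec3b were not matched. Printed 5′ to 3′ along the gene are the windows of Clec4d (chr6:123261857-123262156, plus strand), Clec4e (chr6:123289822-123290121, minus strand), Clec4a2 (chr6:123122440-123122739, plus strand), Clec5a (chr6:40585756-40586055, minus strand) and Clec2i (chr6:128887337-128887636, plus strand). Capitals mark GAGGAA or its reverse complement TTCCTC, the core that the myeloid factor PU.1 prefers, and TGANTCA, the AP-1 site, both searched on both strands.
Clec4d: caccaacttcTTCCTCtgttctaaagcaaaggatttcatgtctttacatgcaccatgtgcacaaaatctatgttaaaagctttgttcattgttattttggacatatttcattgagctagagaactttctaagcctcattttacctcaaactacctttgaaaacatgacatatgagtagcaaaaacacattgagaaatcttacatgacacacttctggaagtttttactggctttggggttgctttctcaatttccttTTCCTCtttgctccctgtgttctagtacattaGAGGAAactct
Clec4e: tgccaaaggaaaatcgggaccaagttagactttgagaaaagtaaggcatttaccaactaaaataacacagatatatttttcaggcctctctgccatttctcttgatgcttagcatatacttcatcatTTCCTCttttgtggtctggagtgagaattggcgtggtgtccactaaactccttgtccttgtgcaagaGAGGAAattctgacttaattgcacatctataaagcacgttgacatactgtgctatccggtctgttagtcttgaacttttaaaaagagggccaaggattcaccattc
Clec4a2: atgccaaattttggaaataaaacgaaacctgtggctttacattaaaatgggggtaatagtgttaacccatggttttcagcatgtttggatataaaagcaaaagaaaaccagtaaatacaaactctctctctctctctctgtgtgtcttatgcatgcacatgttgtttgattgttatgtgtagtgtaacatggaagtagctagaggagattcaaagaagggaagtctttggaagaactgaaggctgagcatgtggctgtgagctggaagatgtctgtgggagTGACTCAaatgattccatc
Clec5a: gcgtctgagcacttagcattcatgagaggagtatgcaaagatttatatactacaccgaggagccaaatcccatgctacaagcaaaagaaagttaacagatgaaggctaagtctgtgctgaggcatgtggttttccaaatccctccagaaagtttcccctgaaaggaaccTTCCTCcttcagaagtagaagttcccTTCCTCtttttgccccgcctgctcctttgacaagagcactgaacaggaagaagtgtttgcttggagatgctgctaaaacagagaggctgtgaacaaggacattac
Clec2i: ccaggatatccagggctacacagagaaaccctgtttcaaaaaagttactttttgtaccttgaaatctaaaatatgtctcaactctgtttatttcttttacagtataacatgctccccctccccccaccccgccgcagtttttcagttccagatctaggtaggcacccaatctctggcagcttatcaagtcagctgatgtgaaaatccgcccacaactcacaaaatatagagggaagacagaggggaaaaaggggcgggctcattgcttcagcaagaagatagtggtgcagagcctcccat

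Clec4d held 3 GAGGAA cores, Clec4e 2 and Clec5a 2, whereas Clec4a2 held 1 TGANTCA and Clec2i neither motif. The RefSeq start of Clec4a2 lies inside the GENCODE gene. Among the 17 genes with a window, 11 (64.71%) held GAGGAA in at least 1 window, and 28.28% of 32851 mouse promoter windows did. These 11 were Clec4a1, Clec4a3, Clec4b1, Clec4d, Clec4e, Clec5a, Clec7a, Clec12a, Clec11a, Clec14a and Clec16a, of which the last 3 are not myeloid receptors. TGANTCA was present in 2 of the 17 (11.76%), Clec12a and Clec4a2, and in 7.808% of all windows. The κB consensus of NF-κB was present in 1 of the 17 (5.882%), Clec1b, and in 8.459% of all windows. Some genes had more than 1 window. Counted by window, GAGGAA was in 12 of the 20 windows of these genes, TGANTCA in 2 and the κB consensus in 1. None of the 5 printed windows held the κB consensus. A match describes letters in these windows and does not show that a factor binds there.

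The 7 reported genes of the Dectin-2 cluster all had positive log2 fold changes, between 0.59 and 1.03 with a median of 0.81. Of these 7, 6 had an unadjusted edgeR p under 0.05, 4 were called by DESeq2, and in 4 the groups did not overlap. In the higher direction, the shares over all genes were 9.66%, 4.55% and 7.01%, in that order. Without Control 3 the median was 0.66. Levels in whole aorta are a product of cell number and RNA per cell, and more cells of a type and more RNA per cell cannot be told apart in these samples. The 9 macrophage markers listed for the comparison (Cd68, Adgre1, Csf1r, Fcgr1, C1qa, C1qb, Itgam, Lyz2 and Mertk) had a median log2 fold change of 0.91, and 0.66 without Control 3. Their summed level was 7944 to 11420 CPM in caIKK2EC aortas and 6417, 6681 and 1943 CPM in Control 1 to 3. Lyz2 made up most of this sum in every library except Control 3. It was at 4059, 4399 and 541 CPM in Control 1 to 3. Of the 9 markers, 8 had an unadjusted edgeR p under 0.05 and 7 were called by DESeq2, and Lyz2 was in neither count. The shares of all genes that were higher by these criteria were 9.66% and 4.55%.

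Clec4d encodes MCL, an activating receptor that forms complexes with Mincle and reaches Syk through FcRγ (chromosome 6, 123262111 to 123275265, plus strand). Its level was 43.6, 24.9, 40.4, 26.8 and 30.98 CPM in caIKK2EC 1 to 5, against 20.2, 20.4 and 16.3 CPM in Control 1 to 3. The groups did not overlap, caIKK2EC 1 and caIKK2EC 3 were the highest libraries, and the 3 Controls lay close together. The log2 fold change was 0.81 (SE 0.20, edgeR adjusted p = 0.128), and DESeq2 called it higher (adjusted p = 0.0112). It stayed called by DESeq2 in 6 of the 8 fits that left out 1 library, and its adjusted p was 0.0563 without caIKK2EC 3 and 0.0881 without Control 3.

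Clec4n encodes Dectin-2, a receptor for fungal mannans that also signals through FcRγ (chromosome 6, 123229843 to 123247021, plus strand). The caIKK2EC libraries 1 to 5 held 39.8, 23.9, 28.5, 24.9 and 27.3 CPM, and the Control libraries 1 to 3 held 20.8, 16.01 and 12.7 CPM. caIKK2EC 1 stood above the other caIKK2EC libraries, which lay between 23.9 and 28.5 CPM, and even the lowest of them exceeded the highest Control. For Clec4n the log2 fold change came to 0.81 (SE 0.21, edgeR adjusted p = 0.133), and it was called higher by DESeq2 (adjusted p = 0.0133). The DESeq2 adjusted p was 0.0624 without Control 2 and 0.1103 without Control 3, and under 0.05 in the other 6 fits.

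Clec4e encodes Mincle, which recognises the mycobacterial glycolipid cord factor and the nuclear protein SAP130 released from dying cells (chromosome 6, 123281789 to 123289870, minus strand). Its level was 10.7, 4.47, 9.14, 7.23 and 7.83 CPM in caIKK2EC 1 to 5 and 4.45, 4.10 and 2.98 CPM in Control 1 to 3. The groups did not overlap, but caIKK2EC 2 and Control 1 were nearly equal. Clec4e had the largest log2 fold change of the Dectin-2 cluster, 1.03 (SE 0.29, edgeR adjusted p = 0.144), and a DESeq2 adjusted p of 0.0169. Left out one at a time, 4 libraries took the DESeq2 adjusted p past 0.05: it was 0.0769 without caIKK2EC 3, 0.0506 without caIKK2EC 4, 0.0649 without caIKK2EC 5 and 0.130 without Control 3.

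Clec4a2 encodes DCIR, an inhibitory receptor with an ITIM (chromosome 6, 123106428 to 123143999, plus strand). It was measured at 12.4, 8.89, 8.24, 7.19 and 9.19 CPM in caIKK2EC 1 to 5 and at 6.48, 3.59 and 5.69 CPM in Control 1 to 3. All caIKK2EC libraries lay above all Controls, with caIKK2EC 4 close to Control 1. Its log2 fold change was 0.80 (SE 0.25, edgeR adjusted p = 0.165), 0.87 without Control 3, and DESeq2 called it higher (adjusted p = 0.0386). Without caIKK2EC 1, caIKK2EC 3, caIKK2EC 5, Control 2 or Control 3 the DESeq2 adjusted p was 0.0771, 0.0841, 0.121, 0.183 and 0.0918, in that order, and only 3 of the 8 such fits called it.

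Clec4a3 and Clec4a1, further DCIR-type genes of mouse, had positive fold changes that passed neither test. Clec4a3 was at 26.1, 18.6, 15.7, 20.0 and 22.6 CPM in caIKK2EC 1 to 5 and at 16.7, 13.1 and 11.3 CPM in Control 1 to 3, and the groups overlapped only where caIKK2EC 3 fell below Control 1. Its log2 fold change was 0.59 (SE 0.19, edgeR adjusted p = 0.179, DESeq2 adjusted p = 0.0688). Clec4a1 was at 18.7, 13.5, 10.4, 14.95 and 16.1 CPM in caIKK2EC 1 to 5 and at 11.6, 7.14 and 9.82 CPM in Control 1 to 3, again with only caIKK2EC 3 inside the Control range. Its log2 fold change was 0.63 (SE 0.22, edgeR adjusted p = 0.199, DESeq2 adjusted p = 0.0863).

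Clec4b1, which encodes the activating receptor DCAR, had the fewest reads of the 7 reported genes of the cluster. It was at 1.87, 1.73, 1.32, 1.32 and 1.97 CPM in caIKK2EC 1 to 5 and 1.70, 0.555 and 0.275 CPM in Control 1 to 3, from 6 to 61 raw counts per library. Control 1 lay inside the caIKK2EC range, and the log2 fold change of 0.94 had an SE of 0.52 (edgeR adjusted p = 0.391). It was 1.97 without Control 1 and 0.54 without Control 3. The Clec4a and Clec4b genes are close copies, and 50-nt reads that match more than 1 of them could be split or lost, so their single values are uncertain. Summed over these 6 genes, the level was 59.2, 42.9, 35.9, 43.6 and 49.97 CPM in caIKK2EC 1 to 5 and 36.6, 24.6 and 27.1 CPM in Control 1 to 3, a log2 difference of 0.66. Only caIKK2EC 3 and Control 1 kept these summed levels from separating.

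**Figure D2:**
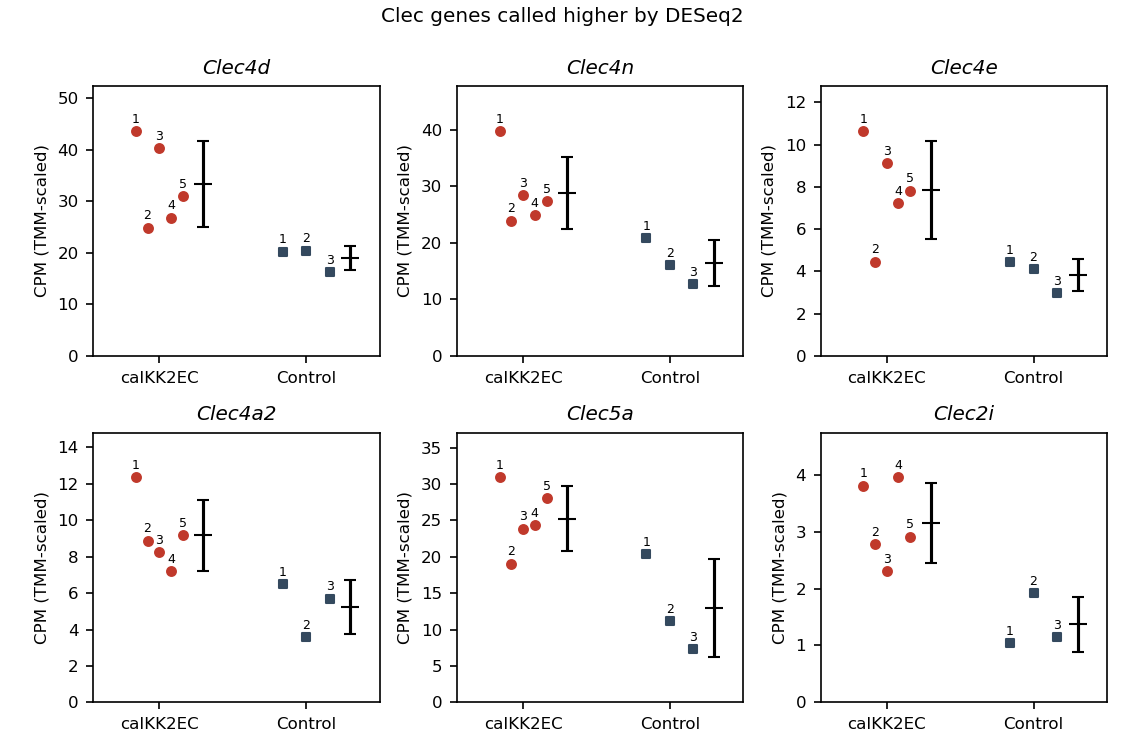
CPM of those 6 of the 21 reported Clec genes that DESeq2 called higher, with 1 panel per gene and a linear axis from 0: circles are caIKK2EC libraries, squares are Control libraries, numbers are replicate numbers, and bars are the mean ± SD. The groups do not overlap in 5 panels, and in the Clec5a panel Control 1 (20.4 CPM) lies above caIKK2EC 2 (19.0 CPM).

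Clec5a encodes MDL-1, a myeloid receptor that signals through the adaptors DAP12 and DAP10 (chromosome 6, 40574894 to 40585821, minus strand). It was at 30.9, 19.0, 23.9, 24.4 and 28.0 CPM in caIKK2EC 1 to 5 and at 20.4, 11.2 and 7.34 CPM in Control 1 to 3. The 3 Controls spread widely, and only Control 1 reached the caIKK2EC range. Clec5a differed by 0.96 on the log2 scale (SE 0.30, edgeR adjusted p = 0.163), by 0.68 without Control 3 and by 1.46 without Control 1, and DESeq2 called it higher (adjusted p = 0.0300). DESeq2 kept the call in 2 of the 8 fits without 1 library, those without caIKK2EC 2 (adjusted p = 0.0120) and without Control 1 (adjusted p = 7.81e-06). In the other 6 the DESeq2 adjusted p was 0.0604 without caIKK2EC 1, 0.0770 without caIKK2EC 3, 0.0826 without caIKK2EC 4, 0.1104 without caIKK2EC 5, 0.131 without Control 2 and 0.165 without Control 3.

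Clec10a, which encodes the galactose-binding macrophage lectin MGL1 (chromosome 11), overlapped between the groups. It was at 29.6, 18.9, 12.3, 17.4 and 17.8 CPM in caIKK2EC 1 to 5 and at 25.5, 17.4 and 9.86 CPM in Control 1 to 3. The ranges of the groups nearly coincided, with a log2 difference of 0.12 ± 0.32 (SE; edgeR adjusted p = 0.889) that was -0.16 without Control 3.

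The 6 reported genes of the Dectin-1 cluster had a median log2 fold change of 0.33, and of 0.029 without Control 3. Only Clec12a had an unadjusted edgeR p under 0.05, where 9.66% of all genes were higher, and DESeq2 called 0 of the 6. The difference from the Dectin-2 cluster was not tested.

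Clec12a encodes an inhibitory ITIM receptor that binds uric acid crystals (chromosome 6, 129342691 to 129365303, plus strand). It was at 62.8, 59.6, 74.0, 56.1 and 66.8 CPM in caIKK2EC 1 to 5 and at 54.3, 40.3 and 16.2 CPM in Control 1 to 3. The caIKK2EC libraries were close together and all above the Controls, although Control 1 lay just under caIKK2EC 4. Its log2 fold change was 0.79 (SE 0.31, edgeR adjusted p = 0.237, DESeq2 adjusted p = 0.105), and it was 0.43 without Control 3 and 1.19 without Control 1.

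Clec7a encodes Dectin-1, the β-glucan receptor, and was the most abundant myeloid Clec transcript per length of exon, at 102 CPM per kb in caIKK2EC and 74.0 CPM per kb in Control aortas. Its level was 212, 272, 359, 237 and 262 CPM in caIKK2EC 1 to 5 and 222, 259 and 105 CPM in Control 1 to 3. Control 1 and Control 2 lay within the caIKK2EC range, and only Control 3 lay below it. The log2 difference of 0.46 ± 0.28 (SE; edgeR adjusted p = 0.429) was 0.16 without Control 3 and 0.22 for caIKK2EC 1 against the Controls of the same lane. GENCODE M21 lists mouse Clec7a as a polymorphic pseudogene (chromosome 6, 129461591 to 129472779, minus strand).

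The other 4 genes of the cluster overlapped between the groups. Clec1a encodes MelLec, a fungal melanin receptor that in mouse is found on endothelial cells. It was at 8.43, 9.19, 17.6, 10.4 and 8.99 CPM in caIKK2EC 1 to 5 and at 12.0, 9.98 and 6.24 CPM in Control 1 to 3 (log2 fold change 0.21, SE 0.29, edgeR adjusted p = 0.764). caIKK2EC 3 was the highest library, the other 4 lay between the Control extremes, and the fold change was -0.014 without Control 3.

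Clec1b encodes CLEC-2, the platelet receptor for podoplanin. Its level was 8.04, 13.02, 13.5, 9.04 and 9.28 CPM in caIKK2EC 1 to 5 and 10.4, 12.2 and 5.23 CPM in Control 1 to 3 (log2 fold change 0.18, SE 0.29, edgeR adjusted p = 0.792). Control 3 was the lowest library, and without it the fold change was -0.10. Of 7 platelet and megakaryocyte markers 5 were tested, 0 of them had an unadjusted edgeR p under 0.05, and their summed level was 24.2 to 36.7 CPM in caIKK2EC and 29.0 to 37.97 CPM in Control aortas.

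Clec9a encodes DNGR-1, with which cDC1 dendritic cells sense actin filaments of dead cells. It was at 3.38, 3.16, 2.43, 3.31 and 2.10 CPM in caIKK2EC 1 to 5 and at 3.59, 1.89 and 0.826 CPM in Control 1 to 3 (log2 fold change 0.44, SE 0.42, edgeR adjusted p = 0.632). Control 1 was the highest library and Control 3 the lowest, and the fold change was 1.09 without Control 1 and 0.071 without Control 3. By the annotation, the gene spans of Clec1b and Clec9a, introns included, overlap by 474 bases on the same strand. Reads from any shared exon could not be told apart, and whether exons are shared was not examined.

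Clec12b, another inhibitory receptor, had the lowest mean count of the reported genes, 25.1 raw counts per library. It was at 1.55, 1.39, 0.555, 0.712 and 0.388 CPM in caIKK2EC 1 to 5 and at 1.78, 1.18 and 0.138 CPM in Control 1 to 3. Values differed widely within both groups, and the log2 fold change was -0.19 with an SE of 0.70 (edgeR adjusted p = 0.925).

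**Figure D3:**
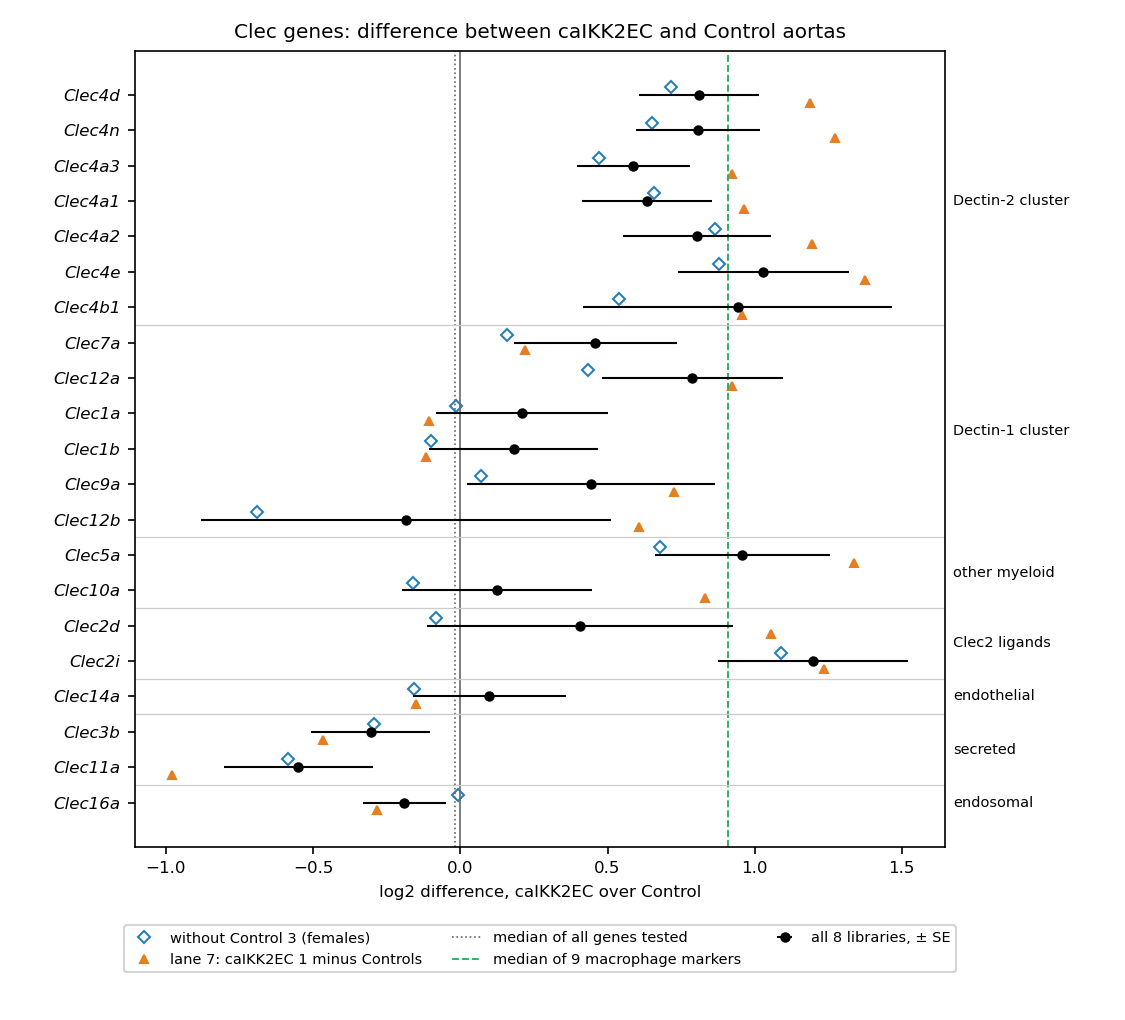
Difference between caIKK2EC and Control for each of the 21 Clec genes, in log2 units: black points are edgeR log2 fold changes over all 8 libraries with bars of ± 1 SE, blue diamonds the same without Control 3, and orange triangles caIKK2EC 1 minus the mean of the 3 Controls in lane 7. The dashed line marks the median of the 9 macrophage markers (0.91) and the dotted line that of all genes tested (-0.017); the 7 Dectin-2 cluster genes lie between 0.59 and 1.03, and Clec11a has the most negative value (-0.55).

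The Clec2 genes encode ligands of the natural killer cell receptors of the NKR-P1 family on target cells, and 2 of them are reported. Clec2i encodes Clr-g, a ligand of the receptor gene Klrb1f in mouse (chromosome 6, 128887588 to 128898167, plus strand). It was at 3.81, 2.78, 2.31, 3.95 and 2.91 CPM in caIKK2EC 1 to 5 and at 1.04, 1.92 and 1.15 CPM in Control 1 to 3, from 25 to 111 raw counts per library. All caIKK2EC libraries lay above all Controls. Clec2i had the largest log2 fold change of the 21 genes, 1.198 (SE 0.32, edgeR adjusted p = 0.136), and DESeq2 called it higher (adjusted p = 0.0121).

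For Clec2i the fold change depended little on Control 3, being 1.09 without it, but the DESeq2 adjusted p was then 0.0906. It was 0.0687 without caIKK2EC 4 and 0.0671 without Control 1, and the other 5 fits without 1 library kept the DESeq2 call. The gene span of Clec2i, introns included, overlaps that of BC035044 on the opposite strand over 3539 bases. Whether the strand was used in counting is not stated in the labels. BC035044 was at 0.738, 1.52, 0.384, 1.46 and 0.938 CPM in caIKK2EC 1 to 5 and at 1.15, 0.444 and 0.505 CPM in Control 1 to 3, so it drew fewer reads than Clec2i in all 5 caIKK2EC libraries and more than Clec2i in Control 1.

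Clec2d encodes Clr-b, the ligand through which cells engage the inhibitory receptor of the gene Klrb1b. Its level was 74.8, 88.4, 61.5, 51.4 and 50.6 CPM in caIKK2EC 1 to 5 and 66.5, 71.8 and 9.31 CPM in Control 1 to 3. Control 3 stood far below the other 7 libraries, and Control 1 and Control 2 lay in the middle of the caIKK2EC range. The log2 difference of 0.41 ± 0.52 (SE; edgeR adjusted p = 0.741) was -0.08 without Control 3.

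The remaining reported genes are not receptors of myeloid cells, and none of them had an unadjusted edgeR p under 0.05. Clec14a encodes an endothelial membrane protein that binds the matrix protein multimerin-2 (chromosome 12). It was at 53.5, 84.3, 85.0, 49.1 and 61.7 CPM in caIKK2EC 1 to 5 and at 70.1, 78.9 and 37.8 CPM in Control 1 to 3. The groups overlapped, with a log2 difference of 0.10 ± 0.26 (SE; edgeR adjusted p = 0.891) that was -0.16 without Control 3. Among 7 endothelial markers the median log2 fold change was 0.16. Only 1 of them, Vwf, had an unadjusted edgeR p under 0.05, where 9.66% of all genes were higher.

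Clec3b encodes tetranectin, a secreted protein that binds plasminogen (chromosome 9), and was the most abundant Clec transcript per length of exon, at 151 CPM per kb in caIKK2EC and 187 CPM per kb in Control aortas. It was at 133.8, 206, 109.7, 120.4 and 179.8 CPM in caIKK2EC 1 to 5 and at 189, 179 and 188 CPM in Control 1 to 3. The Controls lay close together, whereas 3 caIKK2EC libraries lay well below them and caIKK2EC 2 above. The log2 fold change was -0.31 (SE 0.20, edgeR adjusted p = 0.475).

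Clec11a encodes osteolectin, a secreted growth factor that binds integrin α11 (chromosome 7). It was at 26.6, 53.9, 24.1, 34.0 and 44.3 CPM in caIKK2EC 1 to 5 and at 64.8, 44.9 and 50.9 CPM in Control 1 to 3. Only caIKK2EC 2 lay inside the Control range, and the other 4 caIKK2EC libraries lay below it. Clec11a had the most negative log2 fold change of the 21 genes, -0.55 (SE 0.25, edgeR adjusted p = 0.306, DESeq2 adjusted p = 0.245). It was -0.58 without Control 3 and -0.98 for caIKK2EC 1 against the Controls of lane 7.

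Clec16a is named as a lectin but encodes an endosomal protein with a role in autophagy (chromosome 16). It was at 29.6, 30.3, 35.9, 31.7 and 33.3 CPM in caIKK2EC 1 to 5 and at 30.8, 33.8 and 45.6 CPM in Control 1 to 3. Only Control 3 lay outside the caIKK2EC range, and the log2 difference of -0.19 ± 0.14 (SE; edgeR adjusted p = 0.526) was -0.0064 without it. The gene span of Gm15558, an antisense gene, overlaps that of Clec16a over 14292 bases, introns included.

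Per kb of exon, the order of levels in Control aortas ran from Clec3b through Clec7a (74.0 CPM per kb), Clec2d (40.6), Clec11a (18.0) and Clec14a (13.6) to Clec4d (11.9) and Clec4n (11.6). In caIKK2EC aortas Clec3b again stood first, followed by Clec7a (102 CPM per kb), Clec2d (53.9), Clec4d (20.9), Clec4n (20.4) and Clec4a3 (15.5), with Clec14a (14.6) and Clec11a (12.3) behind them. Clec4d and Clec4n differed by less than their spread over libraries within either group. At the low end, Clec12b was at 0.568 CPM per kb in caIKK2EC and 0.638 in Control aortas, and Clec2i at 1.013 in caIKK2EC and 0.440 in Control aortas.

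The other 11 family members were below the mean count of 20. Clec2h and Clec4b2 had no read in any library, and Clec2e, Clec2f, Clec2g, Clec2l, Clec4a4, Clec4f, Clec4g and Clec18a had means of 1.5 to 7.625 raw counts. Just outside the minimum was Clec3a, a lectin of cartilage (mean 19.6 raw counts), and just inside was Clec12b (25.1). Clec3a had 5, 2, 45, 58 and 44 raw counts in caIKK2EC 1 to 5 and 2, 1 and 0 in Control 1 to 3, so 3 caIKK2EC libraries carried nearly all its reads. DESeq2 called Clec3a higher as well (adjusted p = 0.00558) and edgeR did not (adjusted p = 0.140), and it is not counted among the 6 called genes. The cartilage collagen gene Col2a1 had 327, 442, 592, 1215 and 259 raw counts in caIKK2EC 1 to 5 and 80, 120 and 380 in Control 1 to 3. Its log2 fold change was the largest of the cartilage marker list, 1.395 (SE 0.68), and its groups overlapped. The log2 fold change was 0.54 for Sox9, 0.42 for Acan and 0.14 for Comp. Matn3, not tested by edgeR, was lower in caIKK2EC, at a mean of 0.171 CPM against 0.289 CPM in Control. The part of cartilage in the Clec3a counts was not tested. Clec4f, the receptor of mouse Kupffer cells in liver, had 13, 0, 0, 0 and 38 raw counts in caIKK2EC 1 to 5 and 1, 1 and 0 in Control 1 to 3. The liver genes Alb, Apoa1 and Ttr had 3, 0 and 0 raw counts in caIKK2EC 1 and 8, 1 and 5 in caIKK2EC 5. They were highest in caIKK2EC 4 (174, 51 and 60), where Clec4f had 0. The part of liver in the Clec4f counts was not tested.

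Each library's level of 15 receptor genes, those of both Dectin clusters with Clec5a and Clec10a, was next expressed relative to the macrophage markers, as log2(CPM + 0.5) minus the mean of the same quantity over the 9 markers. Since the markers themselves differed between the groups, a gene with a like fold change lies near 0 on this scale by construction. By the same construction, a gene that does not differ in CPM lies below 0. The difference between caIKK2EC and Control was -0.12 for Clec4d, -0.09 for Clec4n, 0.02 for Clec4e, -0.13 for Clec4a2, 0.14 for Clec5a and 0.05 for Clec12a. Two-sided exact permutation tests over the 8 libraries, with a smallest possible p of 0.0357, gave adjusted p-values of 0.804 to 0.893 for these 6 genes. With 1 library left out, the sign changed in Clec4d, Clec4e, Clec4a2, Clec5a and Clec12a.

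The most negative relative differences lay in the Dectin-1 cluster and Clec10a. Clec1a had relative log2 levels of -5.53, -5.12, -4.61, -5.19 and -5.51 in caIKK2EC 1 to 5 and of -4.37, -4.59 and -4.54 in Control 1 to 3. All caIKK2EC libraries lay below all Controls, with caIKK2EC 3 nearly level with Control 2. In CPM the groups overlapped for Clec1a (log2 fold change 0.21), so the higher markers in caIKK2EC set the direction of its relative difference. How many of all genes separate in this way was not counted. The difference was -0.69, with an exact permutation p of 0.0357, the smallest this design allows, and an adjusted p of 0.357 over the 15 genes.

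The other differences of this kind were -0.66 for Clec1b, -0.73 for Clec10a, -0.89 for Clec12b, -0.38 for Clec9a and -0.35 for Clec7a, with exact permutation p-values of 0.0714, 0.107, 0.143, 0.321 and 0.143 in that order. Clec4a3 (-0.32), Clec4a1 (-0.28) and Clec4b1 (-0.09) made up the rest. None of the 15 passed after adjustment, and a single gene at the smallest possible p cannot pass an adjustment over 15 genes.

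**Figure D4:**
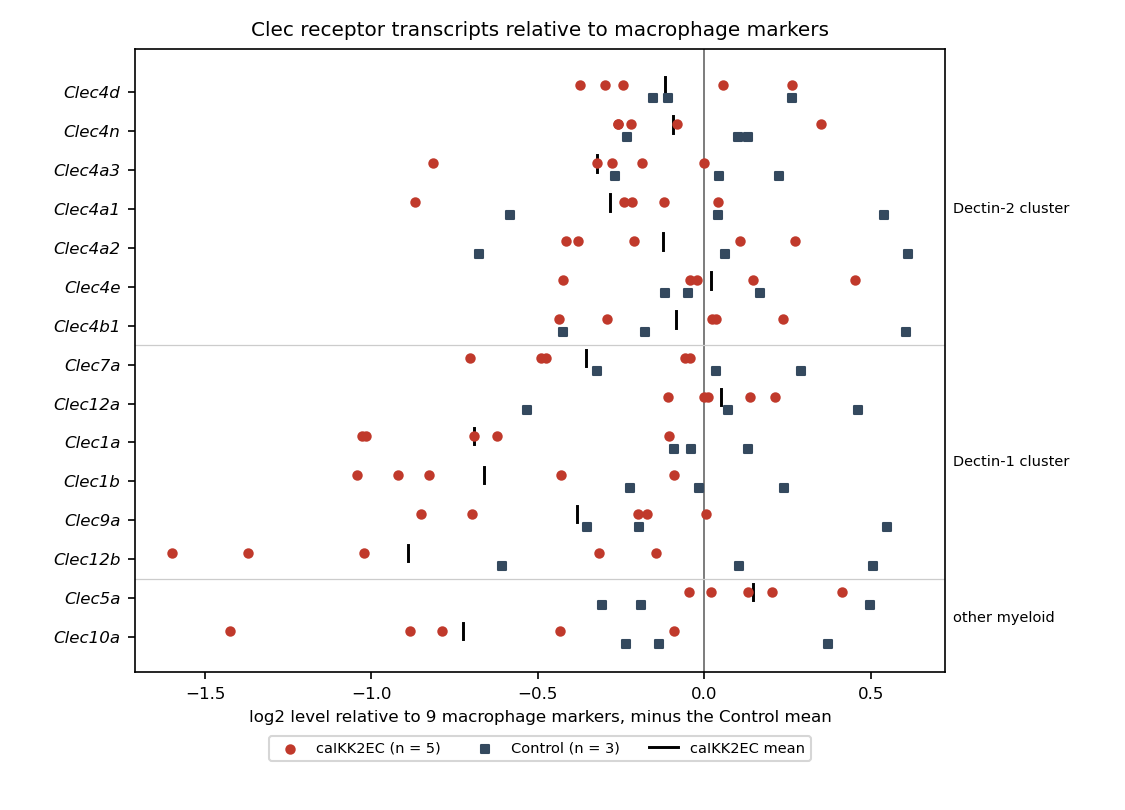
Relative log2 level of 15 Clec receptor genes, those of both Dectin clusters with Clec5a and Clec10a, that is log2(CPM + 0.5) minus the mean over the 9 macrophage markers, drawn as the difference from the Control mean: circles are the 5 caIKK2EC libraries, squares the 3 Controls, and ticks the caIKK2EC means. For Clec4d, Clec4n and Clec4e the circles scatter around the squares, while for Clec1a all circles lie left of all squares (mean difference -0.69). The markers were higher in caIKK2EC, so a gene that does not differ in CPM lies left of the Control mean.

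Marker lists of other cell types were counted in the same way. Among all genes tested, 9.66% were higher and 7.47% lower at an unadjusted edgeR p under 0.05, and DESeq2 called 4.55% higher and 1.51% lower. Of 6 dendritic markers 5 had an unadjusted edgeR p under 0.05 and 4 were DESeq2 calls, all higher. Zbtb46 was in neither count, with a log2 fold change of 0.13 (SE 0.21). The 6 markers summed to 446 to 598 CPM in caIKK2EC and 262 to 355 CPM in Control aortas. Most of this was Itgax (mean 382 CPM in caIKK2EC, 229 in Control) and Irf8 (112 and 61.0 CPM). Whether this list separates dendritic cells from macrophages was not tested. All 5 smooth muscle markers had an unadjusted edgeR p under 0.05 in the lower direction, 1 of them a DESeq2 call, and summed to 9630 to 20290 CPM in caIKK2EC and 17700 to 35640 CPM in Control aortas. The groups overlapped in all 5 smooth muscle genes, the highest sum was that of Control 3, and their median log2 fold change of -0.81 was -0.48 without it. The part of any of these shifts in the Clec values was not tested, apart from the levels relative to macrophage markers.

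Counts for the other marker lists give unadjusted edgeR p under 0.05, higher and lower, over the genes tested. They were 2 higher of 6 for resident macrophages, 1 higher and 1 lower of 5 for neutrophils (a listed neutrophil gene without a row was not analysed here), 3 higher of 4 for cDC1 cells, 1 higher of 5 for fibroblasts and 1 higher of 6 for T cells. For NK cells (4 tested), B cells (5), adipocytes (5), cartilage (4) and skeletal and heart muscle (5) the counts were 0 in both directions. Even so, caIKK2EC 1 and Control 1 stood apart in skeletal and heart muscle markers, which summed to 384 CPM in caIKK2EC 1 and 819 CPM in Control 1, and to between 24.4 and 55.6 CPM in each other library. Adipocyte markers summed to 2360 CPM in caIKK2EC 1 and 182 to 734 CPM in caIKK2EC 2 to 5, against 945 to 1374 CPM in Control aortas. The part of these tissues in the Clec values was not tested. No marker was at 0 in all libraries, and the platelet gene Gp6, at no more than 0.162 CPM, and Gp9, with 1.61 CPM in Control 3 and at most 0.388 CPM elsewhere, had the fewest reads of the platelet list.

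The genes of the signalling proteins behind these receptors were examined next. Of 17 genes listed as adaptors and kinases of lectin signalling, edgeR gave 14 an unadjusted p under 0.05 in the higher direction and 0 in the lower. Over all genes these shares were 9.66% and 7.47%. DESeq2 called 11 higher, where it called 4.55% of all genes higher. In 13 every caIKK2EC library lay above every Control, where 7.01% of all genes did so. Their median was 0.80 on the log2 scale, and 0.57 if Control 3 is left out. The macrophage markers had medians of 0.91 and 0.66, and a difference between the 2 lists was not tested. The 4 with the smallest p were the inositol phosphatase gene Inpp5d (0.88, SE 0.15), the Src-family kinase gene Lyn (0.91, SE 0.18), the exchange factor gene Vav1 (0.80, SE 0.16) and the adaptor gene Lcp2 (0.81, SE 0.17), each with an edgeR adjusted p of 0.107 and called higher by DESeq2.

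Inpp5d was at 117, 95.6, 140.0, 140.4 and 132 CPM in caIKK2EC 1 to 5 and at no more than 72.5 CPM in any Control. No caIKK2EC library came near the Control range.

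C-type lectin-like genes with other names were examined in the same way. Of 26 listed, 24 were tested, with 6 higher and 0 lower at an unadjusted edgeR p under 0.05 (9.66% and 7.47% of all genes). There were 4 DESeq2 calls, all higher (4.55% of all genes), and the median log2 fold change was 0.17. The 4 with the smallest p were Cd72 (1.09, SE 0.23), an inhibitory B cell and macrophage receptor, Klrb1b (1.31, SE 0.32), the receptor for the Clec2d product, Mrc1 (0.58, SE 0.16), the mannose receptor, and Cd209a (0.97, SE 0.26), a dendritic cell lectin. Their edgeR adjusted p-values were 0.107, 0.121, 0.136 and 0.136, in that order, and all 4 were called higher by DESeq2.

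Among 10 ligands and partners of the Clec proteins 9 were tested, with 5 higher and 0 lower at an unadjusted edgeR p under 0.05 (9.66% and 7.47% of all genes). DESeq2 called 3 of them, all higher (4.55% of all genes), and the median log2 fold change was 0.55. Klrb1b, given above, had the smallest p of them. Pdpn, which encodes the CLEC-2 ligand podoplanin, was at 104, 61.1, 76.9, 85.5 and 88.6 CPM in caIKK2EC 1 to 5 and at 60.4, 56.7 and 48.1 CPM in Control 1 to 3, and caIKK2EC 2 lay just above Control 1 (log2 fold change 0.60, SE 0.17, edgeR adjusted p = 0.144, DESeq2 adjusted p = 0.0294). Itga11, which encodes the integrin that binds osteolectin, differed by 0.55 on the log2 scale (SE 0.16, edgeR adjusted p = 0.146, DESeq2 adjusted p = 0.0357). Mmrn2, which encodes the partner of the Clec14a product, differed by 0.62 on the log2 scale (SE 0.20, edgeR adjusted p = 0.174, DESeq2 adjusted p = 0.0508).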

How the data were processed

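The authors deposited raw gene-level counts of 8 libraries of single 50-nt reads, all 8 columns matched to samples by name. Per the submitters' processing notes, FastQC 0.11.5, STAR 2.7.0e and DESeq2 1.22.2 were used on GRCm38 (mm10). The counter, its gene annotation and its strand setting are not given there or in the labels. The authors' deposited comparison table gives log2 fold changes, a score per gene (the standard error) and p-values, which served only to match names and identifiers. The authors' regularized log values were not used. Date conversion had altered 27 gene names, none of them a Clec gene.

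Differences were tested with edgeR 4.0.16 (R 4.3.3; TMM, default filter on low counts, robust quasi-likelihood, group as the only term) over 14679 genes, with Benjamini-Hochberg adjustment and a threshold of 0.05. DESeq2 1.42.0 on the same counts was the alternative, on genes with a total count of 10 or more. Relative levels were tested with exact permutation over all 56 splits (scipy 1.17.1). Replicates are separate mice, per the labels. The edgeR and DESeq2 procedures were tested on simulated data. Every Clec gene with a mean raw count of 20 or more was named; from the other lists, the 4 members with the smallest unadjusted edgeR p, or those needed to describe a marker list. The family, its role groups, the pathway lists and the marker lists were chosen with earlier results of these data known. Col2a1, BC035044, Clec4f, the liver genes Alb, Apoa1 and Ttr and the sum over near copies were chosen after values were seen. Coordinates are from GENCODE M21, and promoters and motif counts from RefSeq windows. Alternatives were RLE size factors, other count filters, lane, sex, age or replicate number as a covariate, each library left out and other pseudocounts.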

Additional observations from a re-analysis of the deposited data

Results flagged for a closer look

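Among the 21 reported genes, 2 had a caIKK2EC library that stood apart from the other 4 by Dixon's criterion for 5 samples, a gap of more than 0.71 of the group's range. Chance alone flags about 1 in 20 such groups, and 21 were examined. Clec4n was at 39.78 CPM in caIKK2EC 1, with a gap of 0.713 of the range. Clec1a was at 17.59 CPM in caIKK2EC 3, with a gap of 0.790 of the range.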

How the results depend on the processing

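The edgeR count of 0 over all genes became 661 with age as a covariate, 869 with DESeq2 in its place and 0 to 359 when 1 library was left out, the highest without caIKK2EC 2. Among the 21 Clec genes it became 3 with age (Clec4n, Clec4d and Clec4e), 6 with DESeq2 and 0 to 2 without 1 library (Clec4d and Clec4e without caIKK2EC 2). The DESeq2 count of 6 became 0 with sex as a covariate, 10 with age (9 higher) and 0 to 9 without 1 library: 0 without Control 3, 3 without caIKK2EC 4, caIKK2EC 5 or Control 2, and 9 without Control 1. With lane as a covariate it was 4. The median log2 fold change of 0.46 became 0.75 with lane, 0.16 with sex, 0.67 with age and 0.16 to 0.77 without 1 library, lowest without Control 3 and highest without Control 1. Non-overlapping genes numbered 6 to 11 without 1 library, 11 without Control 1, an alternative added after seeing the data. Sex as a covariate and leaving out Control 3 are nearly the same comparison. With a replicate block edgeR called 0 Clec genes and the median was 0.58. Same-numbered libraries deviated together with r = 0.34, 0.10 and 0.097, and differently numbered ones with r from -0.28 to 0.18. For each of caIKK2EC 1 to 3 the same-numbered Control had the highest r of the Controls. The numbers were not taken to pair the mice, and these values do not settle whether they do. Of 336 alternative log2 fold changes 303 kept their direction and side of the threshold, 11 passed it and 22, in 6 genes, changed sign. With lane as a covariate Clec14a was -0.22, Clec12b 0.57, Clec1b -0.21 and Clec1a -0.16. With sex Clec10a was -0.16, Clec14a -0.16, Clec2d -0.083, Clec1b -0.10 and Clec1a -0.014, and Clec12b was 0.38 with age and 0.47 with the replicate block. Without 1 library Clec10a ranged from -0.16 to 0.51, Clec14a from -0.16 to 0.32, Clec12b from -0.69 to 0.46, Clec1b from -0.10 to 0.45, Clec1a from -0.029 to 0.44 and Clec2d from -0.083 to 0.80. Of 150 alternative levels relative to macrophage markers 12, in 6 genes, changed sign: Clec4b1 was 0.28 with a pseudocount of 0.1 and Clec4e -0.15 with 2, and without 1 library Clec4b1 ranged from -0.30 to 0.22, Clec4e from -0.087 to 0.13, Clec5a from -0.0088 to 0.39, Clec4a2 from -0.46 to 0.18, Clec4d from -0.21 to 0.013 and Clec12a from -0.22 to 0.28. The causes were not tested. Depth limits Clec12b, Clec4b1, Clec9a and Clec2i, each of which had at most 111 reads in any library.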
